A study of Mus musculus with 4 samples.

Results

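The regions described here are the RUNX1 peaks that lay at the starts of noncoding RNA genes in the fetal mouse ovary. A peak entered this set when its midpoint was within 1 kb of at least 1 transcription start site (TSS) of the curated RefSeq annotation of mm10, when every gene with a start in that reach was noncoding (curated NR_ transcripts only), and when these genes were not on opposite strands. Of the 10490 peaks on chromosomes 1 to 19 and X, 176 met this rule. By comparison, 6373 peaks had only protein-coding starts on 1 strand in reach, 738 had protein-coding starts on both strands, 598 had coding and noncoding starts together, 7 had noncoding starts on both strands and 2598 had no start within 1 kb. By RefSeq gene class, the 176 peaks fell into 136 at long noncoding RNA (lncRNA) genes, 18 at microRNA (miRNA) genes, 13 at transcribed pseudogenes, 5 at an lncRNA gene together with a small RNA gene, and 4 at other small RNA genes. RUNX1 was mapped by chromatin immunoprecipitation followed by sequencing (ChIP-seq) in ovaries of CD1 mouse embryos at E14.5, from female XX gonads, with 2 RUNX1 ChIP samples and 2 input samples. Each ChIP used 20 to 30 μg of chromatin from a pool of 80 to 100 ovaries according to the sample labels (the study's methods give a somewhat larger pool) and 10 μl of RUNX1 antibody. The animals were not genetically altered, and a whole ovary holds pre-granulosa cells, germ cells, stroma and vessels, so the cell type behind a peak was not resolved.

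RUNX1 is a DNA-binding factor that works with its partner CBFβ and recognises a short core, TGTGGT or TGCGGT, read on either strand. In the fetal ovary it is known as a factor of pre-granulosa cells, the supporting cells that surround germ cells. Noncoding RNA genes are a mixed group: some lncRNAs act in the nucleus or on a neighbouring gene, some only carry small nucleolar RNAs (snoRNAs) in their introns, and miRNAs repress mRNAs that pair with their seed, bases 2 to 8 of the mature strand. The annotated start of a miRNA gene is the end of its hairpin, not the start of the longer primary transcript.

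The peak sequences that carry the results are given first, read from GRCm38 (mm10) on the plus strand, with each RUNX core in capitals (ACCACA and ACCGCA are the core on the minus strand). The first 2 are the whole 300 bp of the peak with the highest fold, at the pseudogene 4632415L05Rik (chr3:19894733-19895032, with 2 cores), and of the third highest, at 4930488L21Rik (chr8:93813435-93813734), shown because it holds no core.
4632415L05Rik: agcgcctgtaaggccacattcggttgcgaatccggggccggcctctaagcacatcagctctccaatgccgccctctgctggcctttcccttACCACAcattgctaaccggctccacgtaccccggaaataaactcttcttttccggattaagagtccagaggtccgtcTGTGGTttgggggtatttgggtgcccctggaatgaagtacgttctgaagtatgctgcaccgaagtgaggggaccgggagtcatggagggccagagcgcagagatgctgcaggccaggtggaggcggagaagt
4930488L21Rik: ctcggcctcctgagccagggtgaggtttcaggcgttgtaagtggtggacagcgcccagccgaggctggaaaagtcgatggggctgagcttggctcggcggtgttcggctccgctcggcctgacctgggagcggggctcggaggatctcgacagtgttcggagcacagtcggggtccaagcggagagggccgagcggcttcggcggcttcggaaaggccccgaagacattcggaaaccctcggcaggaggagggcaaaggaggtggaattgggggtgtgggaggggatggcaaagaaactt

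Shorter windows around 1 core follow for members named in the results: strong lncRNA members, the pseudogene member Abhd1, the nuclear lncRNAs Malat1 and Neat1, a snoRNA host, and small RNA members with a fold above 10. In order they are from chr6:134928350-134928404, chr5:30950030-30950089, chr9:124424206-124424265, chr7:73557802-73557861, chr7:73558432-73558491, chr2:18026537-18026596, chr19:5803274-5803333, chr19:5845899-5845934, chr9:88522876-88522935, chr3:108554784-108554843, chr9:51103575-51103634, chr10:122985540-122985599 and chr9:67236184-67236243. The windows at Lockd and Neat1 are shorter because the core lay near the edge of the peak.
Lockd: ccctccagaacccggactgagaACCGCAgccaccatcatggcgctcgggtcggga
Abhd1: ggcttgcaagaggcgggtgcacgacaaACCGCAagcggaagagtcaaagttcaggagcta
4930526I15Rik: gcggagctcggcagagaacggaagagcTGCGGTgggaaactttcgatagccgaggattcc
Chaserr, intron: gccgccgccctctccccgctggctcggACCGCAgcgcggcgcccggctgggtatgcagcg
Chaserr, start: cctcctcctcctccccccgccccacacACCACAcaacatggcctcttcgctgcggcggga
Gm17762: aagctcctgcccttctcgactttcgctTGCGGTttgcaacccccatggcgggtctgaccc
Malat1: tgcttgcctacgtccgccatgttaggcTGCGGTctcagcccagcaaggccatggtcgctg
Neat1: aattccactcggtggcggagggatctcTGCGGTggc
Snhg5: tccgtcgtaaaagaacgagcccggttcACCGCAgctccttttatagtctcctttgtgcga
Scarna2: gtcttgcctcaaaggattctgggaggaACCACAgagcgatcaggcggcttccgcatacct
Mir34b and Mir34c: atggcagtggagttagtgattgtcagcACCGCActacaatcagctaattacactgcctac
Mirlet7i: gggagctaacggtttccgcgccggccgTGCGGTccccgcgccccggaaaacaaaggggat
Mir190a: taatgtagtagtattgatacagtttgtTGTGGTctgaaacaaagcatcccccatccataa

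The miRNA members included 4 pairs of genes whose mature strands share a seed, and these are printed with the seed in capitals from the RefSeq table for GRCm38, together with let-7i-5p. The pairs shared the seeds AACAGUC (Mir132 and Mir212), ACUGGCC (Mir193a and Mir193b), AUCACUA (Mir34b and Mir34c) and GAUAUGU (Mir190a and Mir190b). Of the 20 miRNA genes at these peaks, 19 were found in the table, with 32 mature sequences.
miR-132-3p: uAACAGUCuacagccauggucg
miR-212-3p: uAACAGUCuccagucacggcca
miR-193a-3p: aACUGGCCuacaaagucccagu
miR-193b-3p: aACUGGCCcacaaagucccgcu
miR-34b-3p: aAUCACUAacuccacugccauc
miR-34c-3p: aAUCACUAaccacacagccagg
miR-190a-5p: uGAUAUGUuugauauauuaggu
miR-190b-5p: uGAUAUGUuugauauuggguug
let-7i-5p: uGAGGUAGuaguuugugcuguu

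The deposited list gives each peak a position of 300 bp, a fold over background and a p-value from the authors' peak caller. Peaks were called on reads pooled over the replicates, so a fold carries neither a replicate error nor a known number of reads. The comparisons below are therefore counts and medians over peaks within 1 list. Their 95% intervals (exact Clopper-Pearson for shares, exact order statistics for medians) cover counting error over peaks only, peaks are not replicates of a condition, and the differences between groups of peaks were not tested.

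RUNX1 occupied the starts of a minority of noncoding RNA genes. Of 5166 noncoding genes with a curated transcript, 746 (14.4%, interval 13.5 to 15.4%) had a peak midpoint within 1 kb of a TSS, against 7811 of 20923 protein-coding genes (37.3%, 36.7 to 38.0%). The 176 peaks reached 175 of them (3.39% of all noncoding genes), and the others had a peak with a protein-coding start or noncoding starts on both strands in reach. Among the classes, 616 of 3321 lncRNA genes had a peak (18.5%), as did 28 of 200 other small RNA genes (14%). The share was 6.51% for miRNA genes (80 of 1228) and 5.28% for pseudogenes (22 of 417).

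The share of genes with a peak went with the base composition of the promoter. Composition was read at a single start per gene, whereas the peak could lie within 1 kb of any start of the gene. A promoter (250 bp before to 50 bp after the start) was called CpG-island-like when its G+C content was at least 55% and its observed over expected CpG at least 0.65, which held for 16.3% of noncoding and 38.6% of protein-coding promoters. Of the noncoding genes with such a promoter, 521 of 843 had a peak (61.8%, 58.4 to 65.1%), as did 5322 of 8077 protein-coding genes (65.9%, 64.8 to 66.9%), and the intervals overlapped. Where the start that was read lacked it, the shares were 5.20% of 4323 noncoding and 19.4% of 12841 protein-coding genes. Some of those peaks may lie at another start of the gene, whose composition was not read. The like shares depended on starts that noncoding and protein-coding genes have in common. Among genes with no start of the other kind within 2 kb, 87 of 224 noncoding genes with a CpG-island-like promoter had a peak (38.8%, 32.4 to 45.6%), against 4853 of 7426 protein-coding genes (65.4%, 64.3 to 66.4%). For other promoters in that comparison, the shares were 2.21% of 3802 and 18.8% of 12376.

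**Figure D1:**
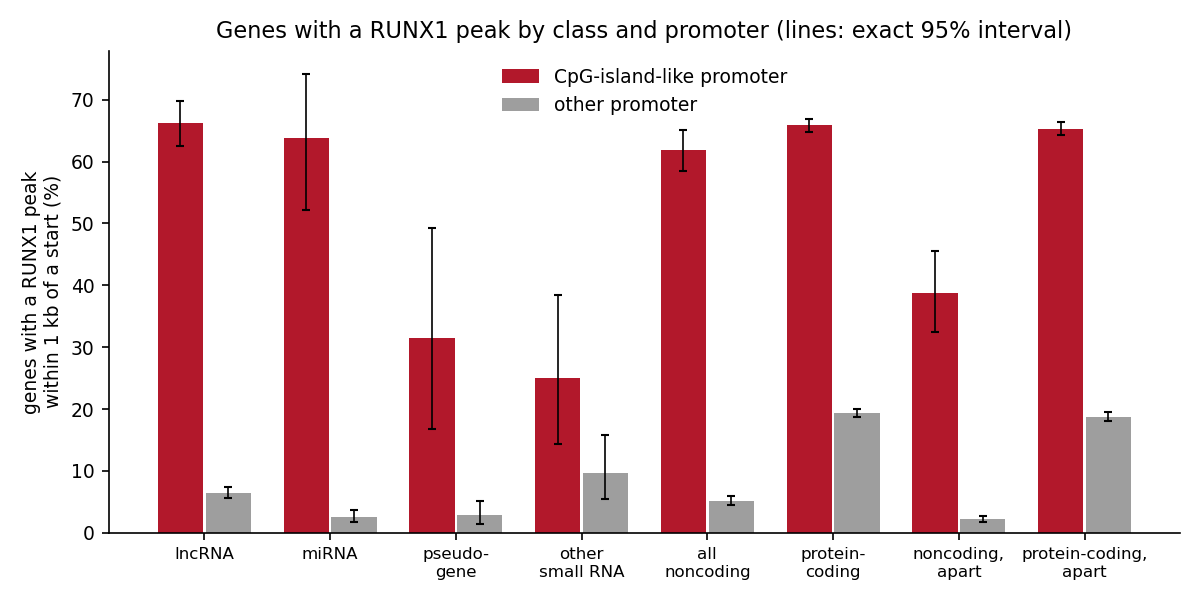
Share of curated RefSeq genes with a RUNX1 peak midpoint within 1 kb of a start (vertical axis, percent), by gene class (horizontal axis) and by whether the promoter was CpG-island-like (red) or not (grey), with exact 95% intervals as lines. The promoter class was read at a single start per gene. The last 2 pairs of bars hold genes with no start of the other kind within 2 kb, where 38.8% of noncoding and 65.4% of protein-coding genes with a CpG-island-like promoter had a peak.

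The authors cut the list on enrichment, and its lowest fold was 4.01, so weaker binding was not compared. Within the list, peaks at noncoding starts had folds much like those at protein-coding starts. Their median fold was 6.45 (interval 5.91 to 7.03) with quartiles of 5.07 and 9.26, against 6.48 (6.38 to 6.56) at protein-coding starts and 6.41 over all placed peaks. Of the 176 peaks, 61 had a fold of 8 or more (34.7%, 27.7 to 42.2%), as had 32.1% of all placed peaks. Folds ran from 4.04 at Mir6973a to 43.81 at 4632415L05Rik, and the list as a whole reached 358.22. A maximum depends on the number of peaks, which was 10490 for all placed peaks. The quartiles of all placed peaks were 5.02 and 8.89. Pseudogene members had a median fold of 8.33 (5.09 to 12.03, n = 13), lncRNA members 6.52 (5.98 to 7.14, n = 136) and miRNA members 5.29 (4.94 to 6.36, n = 18), and the 3 intervals overlapped.

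**Figure D2:**
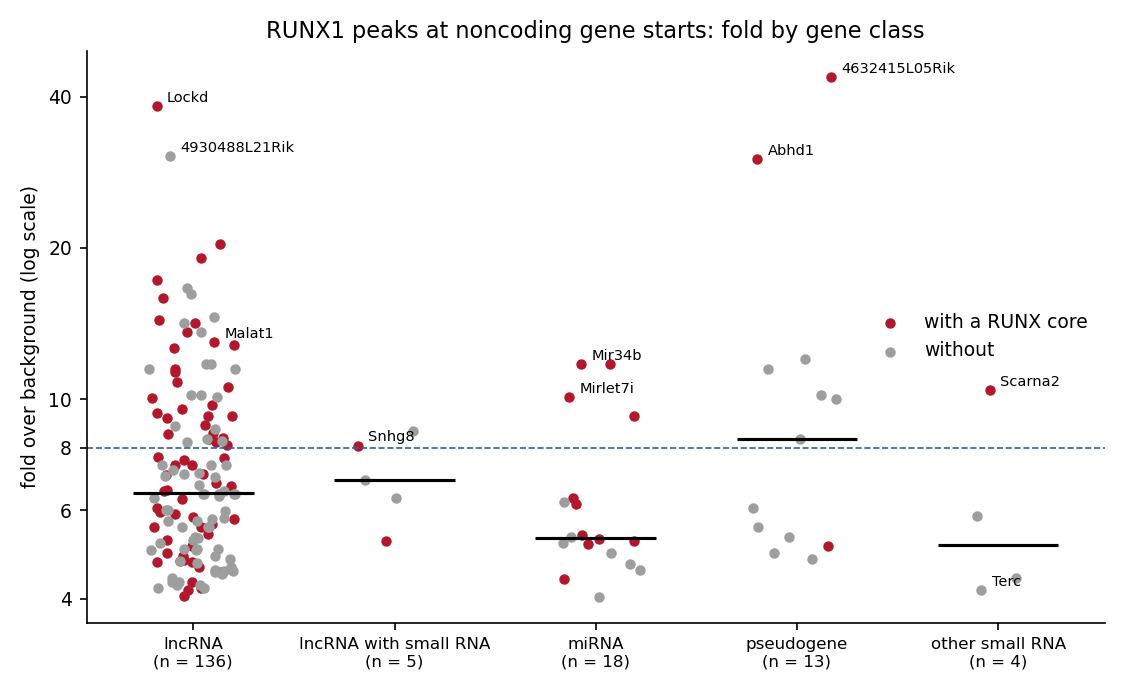
Fold over background of each of the 176 peaks at noncoding gene starts (vertical axis, log scale) by gene class (horizontal axis), in red with a RUNX core and in grey without. Black lines are class medians and the dashed line is a fold of 8, which 61 peaks reached.

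Of the 16 peaks at or above the 15th highest fold, 10 held a RUNX core. For scale, 50.4% of all placed peaks with a fold of 8 or more held one. The strongest peak, at 43.81, had its midpoint 11 bp inside exon 1 of the pseudogene 4632415L05Rik on chromosome 3 and held 2 TGTGGT cores, 1 of them 21 bp from the midpoint, as well as a CTCF site. Lockd followed at 38.35, with the midpoint 593 bp upstream of its start. Lockd is an lncRNA gene that lies downstream of Cdkn1b, which encodes the cell cycle inhibitor p27, and the Cdkn1b start was the nearest protein-coding one, at 8098 bp on the same strand. The third, at 30.41, was at the start of 4930488L21Rik, 29 bp upstream of it and in intron 2 of Gnao1 on the opposite strand. Gnao1 encodes an alpha subunit of a heterotrimeric G protein. At Abhd1, which RefSeq lists as a transcribed pseudogene, the fold was 29.99 and the midpoint lay 20 bp inside exon 1, with a TGCGGT core 27 bp from the midpoint.

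Of the 175 genes reached, 11 had 2 separate peaks each. At 4930526I15Rik the folds were 20.36 and 17.28, with midpoints 672 bp apart and TGCGGT cores in both. Chaserr, an lncRNA that represses its neighbour Chd2, a chromatin remodeller gene, had a peak of 19.13 in intron 1 (544 bp into the gene) and another of 9.39 at the start (50 bp upstream). The intron peak held 1 TGCGGT core and the start peak 2 TGTGGT cores, and the midpoints were 594 bp apart. Chd2 itself began 16105 bp from the intron peak, on the same strand. The other pairs were at Gm17762 (15.92 and 8.33), B330016D10Rik (13.58 and 5.98), Pisd-ps2 (8.33 and 5.55), 6430573P05Rik (7.40 and 5.76), 4932412D23Rik (7.22 and 6.48), Mir7655 (6.23 and 5.18), Gm51803 (5.82 and 4.76), and at Gm32817 and Gm53058, whose starts share 2 peaks (6.48 and 6.35). Of these pairs, only that at 6430573P05Rik had a core in the weaker peak.

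Malat1 and Neat1, abundant nuclear lncRNAs of nuclear speckles and paraspeckles, lie on chromosome 19 and had peaks of like fold. The Malat1 peak had a fold of 12.96 and its midpoint was 674 bp upstream of the start, and the Neat1 peak had 12.80 at 304 bp upstream. Each held 1 TGCGGT core, 43 bp from the midpoint at Malat1 and 144 bp at Neat1. Of the 9 genes in the list of nuclear and p53 linked lncRNAs, these 2 were members. Tug1 (5.73) and Gas5 (4.32) shared their peak with a protein-coding start, and Meg3, Miat, Norad, Pvt1 and Trp53cor1 had none. Among all noncoding genes, 3.39% were members and 14.4% had any peak. The list is short and was not tested against these shares.

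The list of snoRNA host genes had the most members of the lists examined and was also the longest in noncoding genes. These genes carry snoRNAs, guides of rRNA modification, in their introns. Of 21 noncoding snoRNA hosts, 7 were members, another 3 shared a peak with a protein-coding start (Snhg9 at 15.97, Snhg18 at 6.17 and Gas5) and 11 had no peak. The share with any peak in the whole annotation was 14.4% of noncoding genes, and the share reached by the 176 peaks was 3.39%. The lists were chosen with earlier results of these data known, and the counts were not tested against these shares. Of 9 noncoding miRNA hosts, given below, 3 were members. The member folds were 11.34 at Snhg5, 8.84 at Snhg15, 8.20 at Epb41l4aos, 8.08 at Snhg8, 7.10 at Snhg6, 6.90 at Dancr and 5.55 at Snhg16. All 7 midpoints lay within 200 bp of the nearest start in reach, from 191 bp upstream at Snhg16 to 121 bp into the gene at Snhg6. A core was present at Snhg5 (38 bp from the midpoint), Snhg6 and Snhg8 and absent from the other 4. Among the snoRNA genes in reach of member peaks were Snora24 with Snhg8, Snora26 with Dancr, Snord49a and Snord49b with 2410006H16Rik (8.64), and Snord104 with Gm36220 (5.22).

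Imprinted lncRNAs and those of X inactivation had 3 members, with folds from 4.17 to 6.79. Jpx, an activator of Xist, had a peak of 6.79 in intron 1 with a TGCGGT core 17 bp from the midpoint, and the other 4 genes of the X inactivation list had no peak within 1 kb. Airn, the imprinted transcript that silences Igf2r, had a peak of 4.32 at 975 bp into the gene, inside intron 2 of Igf2r on the opposite strand. Peg13, another imprinted transcript, had 4.17 in its exon 1, inside intron 16 of Trappc9. Of the 10 noncoding genes of the imprinted list, Igf2os shared a peak (6.33) and 7 had none, H19, Meg3 and Kcnq1ot1 among them. In the Hox antisense list, 1 of 10 genes was a member, Hoxb3os (4.27), beside the 3.39% of all noncoding genes, and in lists this short such counts cannot be told from that share. Of the others, Hotairm1 (14.81), Hoxa11os (6.66) and Haglr (5.22) shared a peak with a protein-coding start, and 6 had none. For scale, 14.4% of all noncoding genes had any peak, and these lists were not tested against that share.

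Opposite-strand transcripts of developmental genes had 0 members among 13 noncoding genes, where 3.39% of all noncoding genes were reached, so a count of 0 is near that background. A peak shared with a protein-coding start was present at Wt1os (12.96), Emx2os (10.49), Foxl2os (9.05) and Tbx3os1 (4.20), and 9 had none. Any peak was present at 14.4% of all noncoding genes, and this list was not tested against that share. The partners Wt1, Emx2 and Foxl2 encode transcription factors of the gonad. By the rule, such shared starts are outside the set.

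Host transcripts of miRNAs gave 3 members of 9 noncoding genes: Mir22hg at 5.91, and Mir124a-1hg and Mir9-3hg, hosts of the neural miR-124 and miR-9, each at 4.21. Mir17hg, Mir99ahg, Mir100hg, Mir155hg, Mirt1 and Mirt2 had no peak. Of all noncoding genes, 3.39% were reached by the 176 peaks and 14.4% had any peak, and the list was not tested against these shares. The 20 miRNA genes themselves were reached by 19 peaks. The peak overlapped the hairpin of 8 of them, and for the others it lay beside the hairpin within 1 kb. The strongest were at Mir34b and Mir34c (1 peak, 11.72) and at Mir190a (11.72), followed by Mirlet7i (10.08) and Mir378a (9.26). A fold of 11.72 was given to 4 members, and 90 of the 176 members shared their fold with another.

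The Mir34b and Mir34c peak (chr9:51103515-51103814) covered the whole Mir34b hairpin (51103562 to 51103645, minus strand). Predicted protein-coding transcripts of Btg4 and Hoatz also began within 1 kb of it, and the curated Hoatz start was at 1586 bp. Its TGCGGT core at 51103602 to 51103607 lay inside that hairpin, between the mature 3p strand (51103574 to 51103595) and the 5p strand (51103610 to 51103632). The 2 miRNAs, known as targets of p53, share the seed AUCACUA in their 3p strands. The 5p strand of Mir34b has the seed GGCAGUG, and no 5p strand of Mir34c was read, so their 5p seeds were not compared. At Mirlet7i, a member of the let-7 family with the seed GAGGUAG, the midpoint was 160 bp past the hairpin start and the core lay 5 bp from the midpoint. At Mir190a the peak lay 543 bp past the hairpin start in intron 53 of Tln2, had a G+C content of 38.3%, the lowest of all 176, and held a TGTGGT core 30 bp from the midpoint. Mir190b, with the same 5p seed, had a peak of 6.17 with 2 cores, 262 bp before its hairpin. Mir132 and Mir212 share a peak (6.36) as well as a seed, with the whole Mir132 hairpin (66 bp) and 26 bp of the Mir212 hairpin inside it. Mir193a (4.56) and Mir193b (6.35, the peak shared with Gm32817) are on chromosomes 11 and 16, and neither peak held a core.

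The remaining miRNA members ran from 4.04 to 6.23. They were Mir7655 (6.23 and 5.18), Mir1895 (5.35), Mir148a (5.31), Mir7671 (5.27), Mir8111 (5.22), Mir5110 (5.14), Mir375 (4.94), Mir760 (4.70), Mir8120 (4.38) and Mir6973a (4.04). Of the 20 genes, 6 lay inside a protein-coding gene. A core was found in 11 of the 18 peaks classed as miRNA (61.1%, 35.7 to 82.7%). This interval contains the shares of all members (46.6%) and of all placed peaks (39.9%). The Mir8111 peak held 3 cores.

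Other small RNA genes had 4 members. Scarna2, a guide RNA of Cajal bodies that directs modification of spliceosomal RNAs, had the highest at 10.41, 355 bp upstream, with 2 TGTGGT cores and a CTCF site. The U2 gene Rnu2-10 had 5.86 and the U5 gene Rnu5g 4.40, both upstream of the start and without a core. Terc, the RNA template of telomerase, had 4.17 in its exon, also without a core. Of the other small structural RNA genes listed, Rmrp (15.43), Rpph1 (11.11) and Rn7s1 (8.20) had a peak shared with a protein-coding start, Rn7sk (4.63) had one between noncoding starts on both strands, and Rn7s2, Rny1, Rny3 and Vaultrc5 had none. Any peak was present at 14.4% of all noncoding genes and 14% of other small RNA genes, and members were 3.39% of noncoding genes. This short list was not tested against these shares.

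Peaks at noncoding starts were spread more evenly around the start than those at protein-coding starts. The midpoint lay upstream of the nearest TSS in 84 of 176 peaks (47.7%, 40.2 to 55.4%), against 29.7% (28.6 to 30.8%) of 6373 peaks at protein-coding starts. The signed median was 21 bp into the gene (quartiles 176 bp upstream and 245 bp downstream) against 110 bp (43 bp upstream and 278 bp downstream). The distance without sign was alike, 200 bp (156 to 260) against 178 bp (172 to 183). The share of peaks that covered the start was also close, 41.5% (34.1 to 49.1%) and 43.2% (41.9 to 44.4%). The largest gap between the groups was in the first 200 bp of the gene, which held 25% of the noncoding and 37.1% of the protein-coding midpoints. The tails were fuller at noncoding starts, with 7 peaks (3.98%) between 1000 and 800 bp upstream against 0.706%. MiRNA members had a median distance of 331.5 bp (80 to 785, n = 18), an interval that contains that of all members, with 13 of 18 upstream, and for them the start is that of the hairpin.

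**Figure D3:**
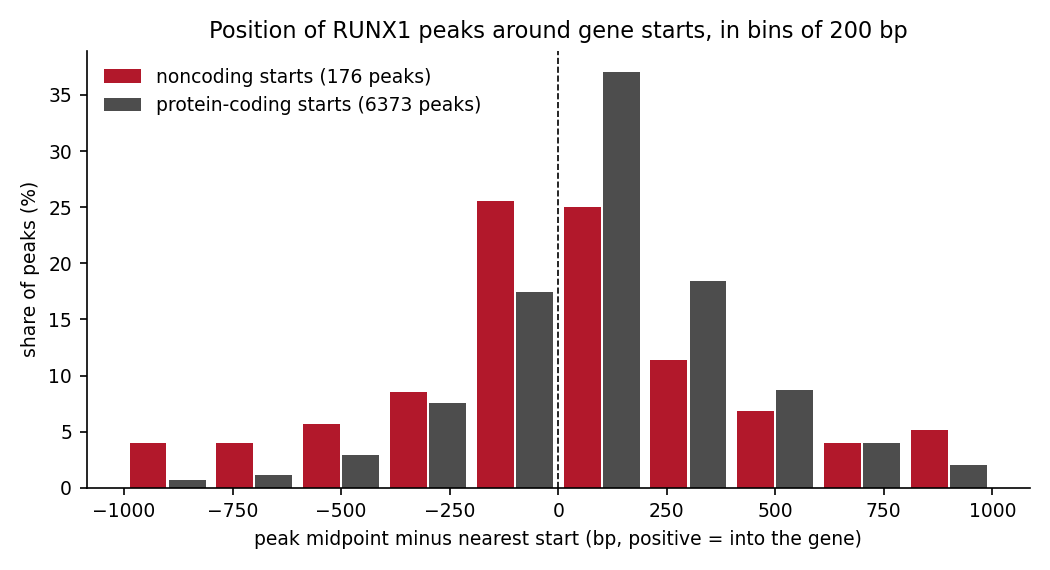
Share of peaks (vertical axis, percent) by the distance from the nearest start to the peak midpoint in bins of 200 bp (horizontal axis, positive values into the gene), for peaks at noncoding starts (red, 176) and at protein-coding starts on 1 strand (dark grey, 6373). The noncoding peaks are split about evenly between the bins on either side of the start, at 25.6% and 25%, and the protein-coding peaks are at 17.4% and 37.1%.

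Within the gene models, 59 midpoints lay in an exon of the gene they marked, 57 of these in exon 1, 31 lay in an intron and 86 outside every transcript of the gene, 5 of the last past the end of a hairpin. The closest midpoints were at 4933413J09Rik, 2 bp upstream of the start with a fold of 7.67, at 4632415L05Rik and Gm17382, each 11 bp into the gene, at Mir34b, 19 bp upstream, and at Snord104 and Abhd1, each 20 bp in. Next were 4930520O04Rik at 22 bp, Gm26839 at 24 bp upstream, 4930488L21Rik at 29 bp upstream and Snhg5 at 30 bp. Their folds ran from 5.22 to 43.81, which is most of the members' range. At the outer limit of 1 kb, the 3 peaks just inside were at Gm12592 (991 bp, 14.19), C030034I22Rik (986 bp, 16.20) and Mir378a (979 bp, 9.26). The 3 just outside were at Gm16174 (1005 bp, 7.70), Mir6973b (1025 bp, 5.25) and 1700066B17Rik (1026 bp, 4.07).

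Most members were far from any curated protein-coding start, and by the rule none was within 1 kb. Distances here are to curated starts only, and 36 of the 176 had a GENCODE or predicted protein-coding start within 1 kb. The nearest curated one was at a median of 21218 bp (16699 to 27420), and 118 of 176 peaks (67.0%, 59.6 to 73.9%) were more than 10 kb from it. Within 5 kb there were 37, of which 16 were convergent, 13 divergent and 8 on the same strand as the noncoding gene. Within 2 kb there were 22, among them the peaks at Sox6os (Sox6 at 1180 bp), 5031425E22Rik (Kmt2e at 1411 bp), Gm12592 (Pik3ip1 at 1450 bp), Hoxb3os (Hoxb2 at 1564 bp) and Gm31734 (Tcf7l2 at 1898 bp). Inside the body of a protein-coding gene lay 35 midpoints, 29 of them in a gene on the opposite strand. At the other end, the peak at 2610035D17Rik (10.05, with 2 TGTGGT cores) was 364024 bp from the nearest curated protein-coding start.

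The noncoding label of some members depended on the annotation. A protein-coding transcript of GENCODE vM21 began within 1 kb of 27 members, a predicted protein-coding RefSeq transcript within 1 kb of 25, and either within 1 kb of 36 (20.5%, 14.8 to 27.2%). The peaks at 4930526I15Rik were among them (Ppp2r3d), as was the Mir34b and Mir34c peak (Btg4 and Hoatz), and so were those at A330074K22Rik (Gse1, fold 14.55), Gm26839 (Foxn3, 8.33) and Gm8098 (Sptbn1, 11.48). For 8 members the gene itself was protein-coding in GENCODE, among them Hyi (10.00), Rnf227 (8.10) and Tunar (6.55). Without the 36, the 140 other peaks had a median fold of 6.35 and a core share of 46.4%.

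The RUNX core was found in 82 of the 176 peaks (46.6%, 39.1 to 54.2%), where 39.9% of all placed peaks held it. At protein-coding starts it was in 33.6% (32.5 to 34.8%) and at peaks with no start within 1 kb in 57.5% (55.6 to 59.5%), so the noncoding starts lay between those groups. TGCGGT was in 30.1% of the noncoding peaks and 23.1% of the protein-coding ones, and TGTGGT in 19.9% and 12.9%. In windows of 300 bp placed 1 kb to either side of the noncoding peaks and touching no peak (336 windows), TGCGGT was in 2.38% and TGTGGT in 19.6%. The core followed by T was in 18.2% of the noncoding peaks and 7.44% of the windows. These windows are not matched to the peaks in composition: 4.76% of them and 72.2% of the peaks were CpG-island-like, and TGCGGT contains a CpG whereas TGTGGT does not. Over 26084 promoters of all genes, either form was in 21.8%. A shuffled core of the same letters (GTGTCG or GTGTTG) was in 14.8% of the noncoding peaks, 16.6% of the protein-coding peaks and 19.6% of the windows. The 2 strands were used about equally, with 56 of 100 cores on the strand of the gene (56%, 45.7 to 65.9%).

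The core share was higher in peaks of higher fold and in the middle of the peak. Of the 61 noncoding peaks with a fold of at least 8, 37 held a core (60.7%, 47.3 to 72.9%), and of the 115 below 8, 45 did (39.1%, 30.2 to 48.7%). These intervals overlapped slightly. At protein-coding starts the shares were 42.6% of 2040 and 29.4% of 4333. The middle 100 bp held a core in 43 noncoding peaks (24.4%, 18.3 to 31.5%) and the first 100 bp in 18 (10.2%, 6.17 to 15.7%). In the last 100 bp it was 29 (16.5%, 11.3 to 22.8%), and this interval overlapped that of the middle. Of the 100 cores, 49 lay within 50 bp of the midpoint by bins of 50 bp, 25 before it and 24 after it. There were 2 or more cores in 16 peaks, and 3 in those at Mir8111 and A930015D03Rik.

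**Figure D4:**
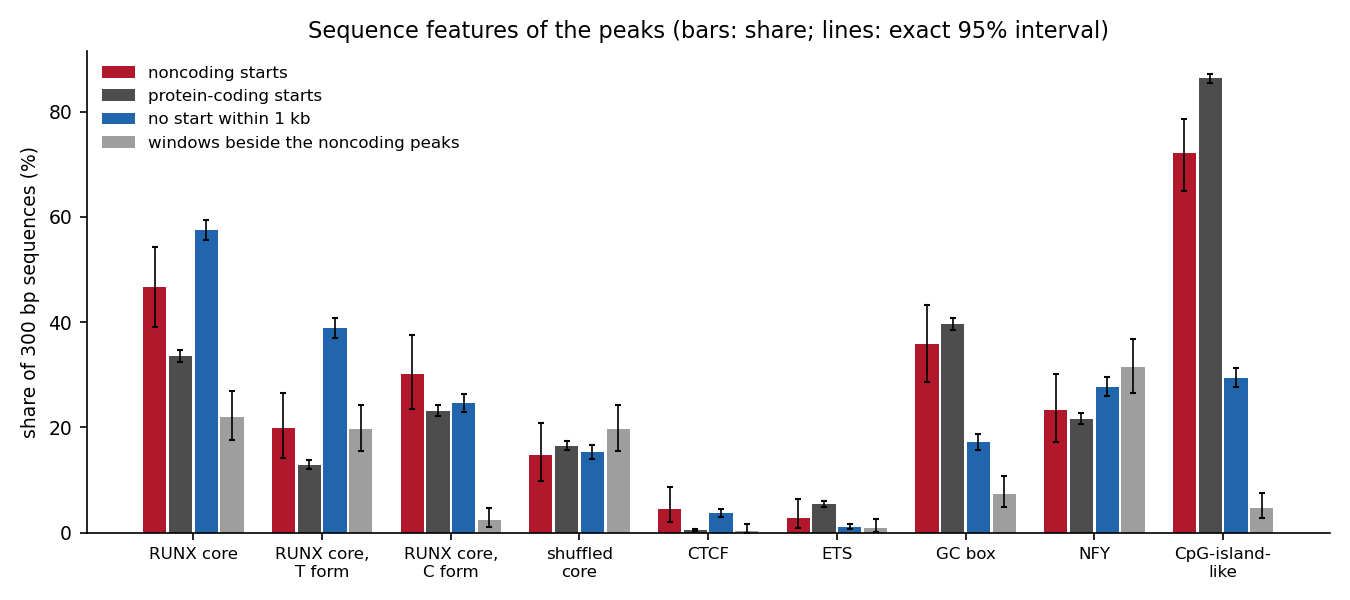
Share of 300 bp sequences (vertical axis, percent, with exact 95% intervals as lines) that hold each motif or are CpG-island-like (horizontal axis), for peaks at noncoding starts (red), at protein-coding starts (dark grey), with no start within 1 kb (blue) and for windows beside the noncoding peaks (light grey). T form is TGTGGT and C form is TGCGGT. The noncoding starts lie between the other 2 groups of peaks for the RUNX core, at 46.6%, 33.6% and 57.5%.

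Members were rich in G+C and CpG, though less so than peaks at protein-coding starts. The median G+C content was 64.7% (63.7 to 67.0%) against 68.0% (68.0 to 68.3%), with 56.0% where no start was in reach. CpG-island-like sequence made up 127 of 176 peaks (72.2%, 64.9 to 78.6%) and 86.4% (85.5 to 87.2%) of the protein-coding ones, and 4.76% of the windows beside the noncoding peaks. Over all placed peaks it was 72.1%. Within the CpG-island-like peaks, 53 of 127 noncoding ones held a core (41.7%, 33.0 to 50.8%) against 31.9% (30.6 to 33.1%) of 5504 protein-coding ones. Within the other peaks, 29 of 49 held a core (59.2%, 44.2 to 73.0%) against 44.8% (41.4 to 48.1%) of 869. The noncoding share was the higher in both classes of composition, and the intervals of the noncoding and protein-coding peaks overlapped in both.

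**Figure D5:**
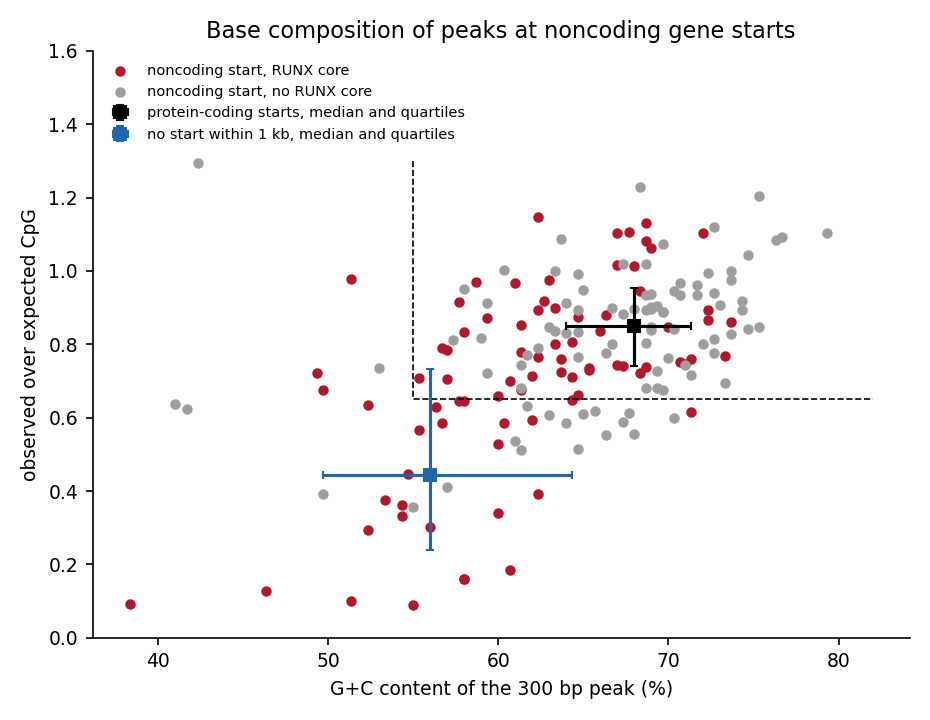
G+C content (horizontal axis, percent) and observed over expected CpG (vertical axis) of each of the 176 peaks at noncoding starts, in red with a RUNX core and in grey without. Squares with lines are medians and quartiles of peaks at protein-coding starts (black) and with no start within 1 kb (blue), and the dashed lines bound the CpG-island-like range, which holds 127 of the 176.

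CTCF sites, bound by the architectural factor of that name, were in 8 of the 176 peaks (4.55%, 1.98 to 8.76%) and in 0.581% (0.409 to 0.799%) of the peaks at protein-coding starts, 3.70% of the peaks with no start in reach and 1.35% of all placed peaks. Of the 8, 7 were among the 49 peaks that were not CpG-island-like (14.3%, 5.94 to 27.2%), where 1.38% of the 869 protein-coding peaks had the site. They were at 4632415L05Rik, Gm36738 (12.65), Pisd-ps1 (12.03), Scarna2, Pisd-ps2 (8.33), Gm4319 (7.40), 9830166K06Rik (6.99) and A930015D03Rik (4.73), and 5 of them also held a RUNX core. Pisd-ps1 and Pisd-ps2 are copies of 1 gene, so their peaks are not independent. The ETS site CCGGAAGT was in 5 members (2.84%, 0.929 to 6.50%) against 5.44% at protein-coding starts and 4.66% of all placed peaks. The forkhead site (TATTTAC or TGTTTAC), of the kind FOXL2 binds, was in 7 members (3.98%, 1.61 to 8.02%), in 2.28% of the peaks at protein-coding starts and in 3.24% of all placed peaks, and in 6.31% of the peaks with no start in reach and 6.55% of the windows beside the noncoding peaks. The GC box GGGCGGG was in 35.8% of members, 39.6% of the peaks at protein-coding starts and 34.0% of all placed peaks. In the same order, the NFY box CCAAT was in 23.3%, 21.7% and 23.5%. GATA sites (AGATAA or TGATAA) were in 9.66% of members, the NR5A site (CAAGGCCA or CAAGGTCA) in 3.98% and the TEAD site (AGGAATG or GGGAATG) in 7.95%. For all placed peaks these were 8.33%, 4.42% and 7.06%. All sites were searched on both strands with overlaps allowed, and a match is a string of letters, not a bound site.

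Among the 13 pseudogene peaks, 3 held a core (23.1%, 5.04 to 53.8%), 4632415L05Rik, Abhd1 and 1700073E17Rik (5.09, with 2). A fold of 8 was reached by 7 (53.8%, 25.1 to 80.8%). Over all placed peaks, 39.9% held a core and 32.1% had a fold of 8 or more. Both shares lie within these intervals. Of the 7, Pisd-ps1, Rps4l (11.48), 1810014B01Rik (10.18), Hyi and the stronger Pisd-ps2 peak had no core. The mapping kept reads with a unique position only, so where a pseudogene resembles another gene, reads common to both are missing, and this resemblance was not measured here. For the remaining members, Zfp389 had 6.06, 6820431F20Rik 5.32, H2-K2 4.94 and Bambi-ps1 4.81.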

How the data were processed

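RUNX1 ChIP-seq and input of E14.5 ovaries were deposited as 1 peak list. According to the study's methods and the submitters' processing notes, the authors mapped quality-filtered reads to mm10 (Bowtie 1.2, reads with a single hit kept), removed duplicates with Picard 1.110, merged the replicates, called peaks with HOMER 4.9, set them to 300 bp and filtered them on enrichment over input and local signal. bedtools 2.24.0 is also named. The deposited fold ratio and p-value of each peak come from that caller, and the file does not say which background the fold is over. No read counts are given, so the depth behind a peak is unknown. Binding at sequence where reads had no unique position, and binding below the authors' limits, are missing from the list.

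From the list onward, peaks were placed by midpoint on 45657 curated transcripts of GRCm38 (26089 genes, 20923 protein-coding) with Python 3.11.15, numpy 2.4.6, scipy 1.17.1 and pandas 2.3.3. Motifs and base composition were read from the same assembly, and classification, motif search and intervals were tested on simulated data. Coordinates count from 1. Genes were named by fold rank, distance to the start, number of peaks, small RNA class or a place in 8 gene lists. Members and lists were chosen with earlier results of these data known. Alternatives were other distances, strand and placement rules, predicted transcripts, stricter fold or p-value limits, other core forms and other CpG limits.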

Additional observations from a re-analysis of the deposited data

How the results depend on the processing

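No paired analysis was possible because the replicates were merged before peaks were called. With starts within 500 bp or 2 kb, with any part of the peak in reach or with both strands kept, the number of peaks, their median fold, core share, G+C content and CpG-island-like share stayed within the limits set for them (1.5 times for the number, the 95% interval for the others), while the share of noncoding genes with a peak was 11.6% at 500 bp and 16.3% at 2 kb. The peaks were not all the same: 136 of 184 at 500 bp and 154 of 179 at 2 kb were among the 176. With predicted transcripts added there were 257 peaks, 149 of them among the 176, with a G+C content of 62.7%, a CpG-island-like share of 58.0% and 8.05% of noncoding genes with a peak. With a fold of at least 8 alone, 61 peaks remained, with a median fold of 10.58, a core share of 60.7% and 5.13% of noncoding genes with a peak. With a p-value under 1e-20 alone, 56 remained, with a median fold of 10.08, a core share of 67.9%, a CpG-island-like share of 80.4% and 5.94% of noncoding genes with a peak. The core share was 19.9% for TGTGGT, 30.1% for TGCGGT, 18.2% for the core followed by T and 24.4% in the middle 100 bp. With limits of 50% G+C and 0.6 observed over expected CpG, the CpG-island-like share was 80.1%. Without peaks that have a GENCODE or predicted protein-coding start within 1 kb, an alternative chosen after seeing the data, the G+C content was 63.3%. These shifts follow from the peaks, sites or limits that each alternative adds or drops. A noncoding gene without a peak may have binding below the authors' limits.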
